A study of Homo sapiens with 4 samples.

Results

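The 10 genes described here encode stress response transcription factors of the ATF and C/EBP groups, and the PPP1R15 proteins that act beside them. They are ATF3, ATF4, ATF5, DDIT3, CEBPA, CEBPB, CEBPD, CEBPG, PPP1R15A and PPP1R15B. They were taken by name, and an N6-methyladenosine (m6A) site was counted when it lay in an exon of any GENCODE transcript of a member on the same strand. Of the 18789 sites listed for C643 cells, 30 met this rule. They fell in 6 of the 10 members, with 10 sites in PPP1R15A, 9 in CEBPB, 7 in ATF5, 2 in DDIT3 and 1 each in ATF4 and CEBPD. No site was listed in ATF3, CEBPA, CEBPG or PPP1R15B. Over all 19341 coding genes, 19.3% held a site, and RNA levels were not analysed here, so whether the members without sites had enough reads was not tested.

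m6A is placed on messenger RNA by the METTL3-METTL14 complex, which prefers the motif DRACH (D is A, G or T, R is A or G, and H is A, C or T). Under stress, kinases phosphorylate the translation factor eIF2α, and most protein synthesis falls while a few messages, ATF4 foremost, are translated better. These messages carry short upstream reading frames in the 5′ UTR that govern how often ribosomes reach the main start codon. ATF4 and ATF5 then act on genes of amino acid supply and protein folding, DDIT3 (CHOP) on genes tied to cell death, and PPP1R15A (GADD34) directs a phosphatase back to eIF2α.

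The cells were C643, an established line from an anaplastic thyroid carcinoma. They were untreated wild-type cells grown in medium with serum, in 1 group of 3 biological replicates, from which 4 libraries were made since replicate 1 had 2. No stress agent was given, and no METTL3-depleted sample was analysed here. In the assay, miCLIP2, an anti-m6A antibody was crosslinked to fragments of polyadenylated RNA and the stops of reverse transcription were mapped. The m6Aboost classifier gave each peak at an adenosine a score between 0 and 1, and the listed sites start at 0.50. The replicates form 1 pooled list without read counts, so the depth behind a site is unknown, no spread between replicates could be computed and no test was run. Intervals are 95% Wilson intervals over motifs or sites. The limit given beside a count of 0 is instead 3 counts of the total, and both cover counting error only. Both treat motifs as separate, though the motifs of a transcript share its RNA level and depth. The limit for a gene is thus no measured ceiling. Motifs are described beside the same over all listed sites, and regions beside the listed sites in exons of coding genes. Both were inputs of the classifier.

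Positions are in GRCh38, and region, exon and distances refer to the canonical (MANE Select) transcript of each gene. Of the 30 sites, 21 lay in coding sequence (CDS; 70%, 52.1 to 83.3), 9 in the 3′ UTR (30%, 16.7 to 47.9) and none upstream of the CDS. Among the 18064 listed sites in exons of the canonical transcripts of all coding genes, the CDS held 42.96%, the 3′ UTR 54.8% and the 5′ UTR 2.26%. PPP1R15A alone gave 10 of the 21 CDS sites. Without it, an alternative chosen after the data were seen, 11 of 20 sites (55.0%, 34.2 to 74.2) were in the CDS. Within 200 nt of the first base of the stop codon lay 10 of the 30 sites (33.3%, 19.2 to 51.2), beside 34.5% of the same 18064 sites.

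**Figure D1:**
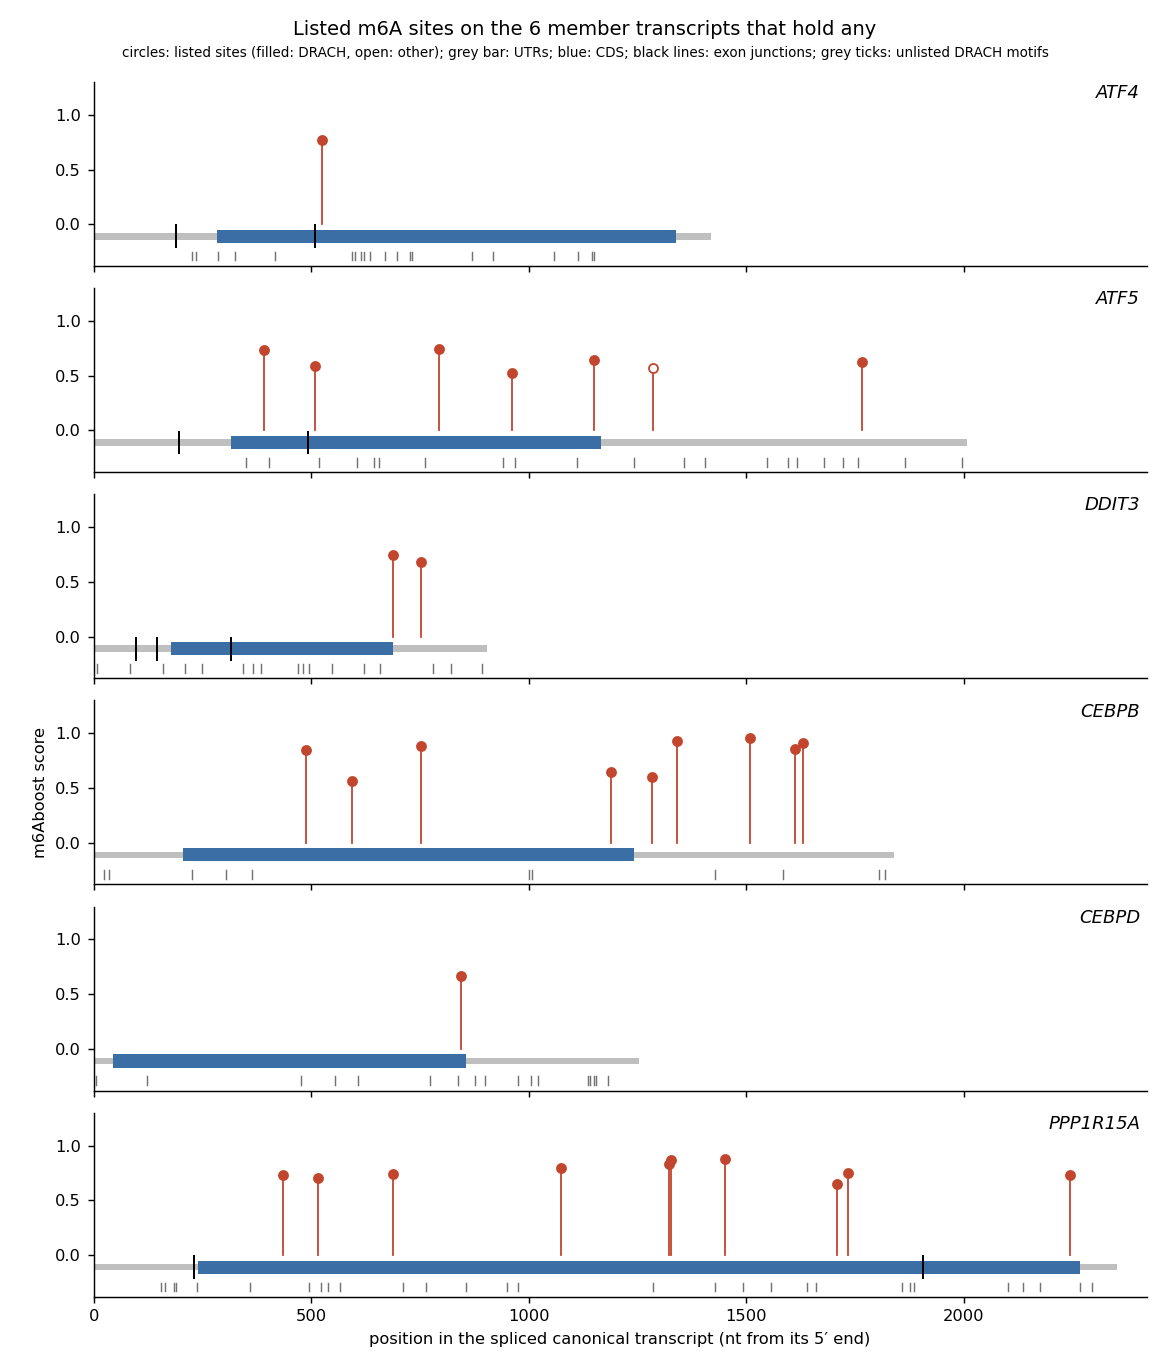
Each panel shows the spliced canonical transcript of a member with sites, with position in nt from its 5′ end on the x axis and the m6Aboost score on the y axis. Circles are listed sites (filled at DRACH, open otherwise), the grey bar is UTR, the blue bar is CDS, black lines are exon junctions and grey ticks are DRACH motifs that were not listed. The 10 sites of PPP1R15A are all coding, the 2 sites of DDIT3 follow its stop codon, and the only open circle is in the 3′ UTR of ATF5.

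The 10 member transcripts held 397 DRACH motifs, of which 29 were listed (7.30%, 5.13 to 10.3). In the transcripts of all coding genes with a site, 7.6% of DRACH motifs were listed. That share leaves out genes without a site, while the 397 motifs include those of members without one. The shares are thus not alike, and no likeness is read from them. In the 6 members with a site, 29 of 144 motifs were listed (20.1%, 14.4 to 27.4). A transcript counts among those with a site only if a site was listed in it, so this share has a floor that is higher for transcripts with few motifs, and nothing is read from it. The 4 members without sites held 253 DRACH motifs in all, with 27 in ATF3, 34 in CEBPA, 72 in CEBPG and 120 in PPP1R15B. The motif GGACT occurred 14 times in these 4 members. In the 6 members with sites, 5 of 11 GGACT motifs were listed, beside 26.7% in all transcripts with a site. The same floor holds for these shares.

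**Figure D2:**
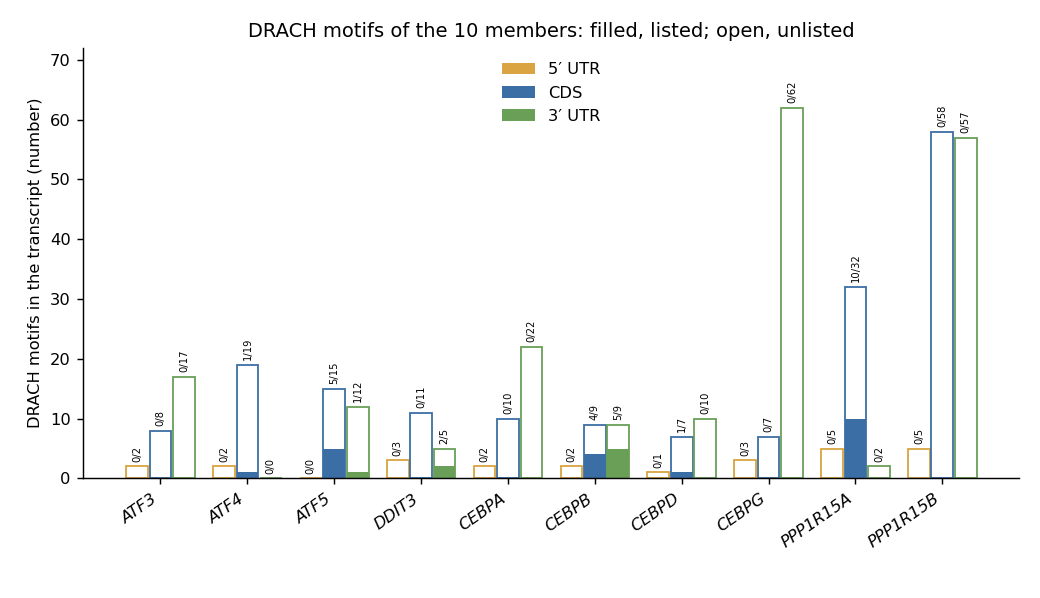
Bars give the number of DRACH motifs in the 5′ UTR (yellow), CDS (blue) and 3′ UTR (green) of each member's canonical transcript, with listed motifs filled and unlisted motifs open, and both numbers above each bar. CEBPB has the highest filled share (4 of 9 coding motifs, 5 of 9 in the 3′ UTR), and the long 3′ UTRs of CEBPG (62 motifs) and PPP1R15B (57 motifs) have no filled part.

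The 5′ UTR was examined next, because the upstream frames of these genes lie there. The 5′ UTRs of the 10 members held 25 DRACH motifs and none was listed. The 6 members with sites accounted for 13 of these motifs, and a count of 0 in 13 allows a share of up to 23.1%. In all transcripts with a site, 4.73% of 5′ UTR DRACH motifs were listed, so the members' motifs are too few to show a difference. Frames opened by an AUG in the 5′ UTR were found in 7 of the members, and in ATF4, ATF5 and DDIT3 the last of them ran past the main start codon in another frame. Together the frames held 18 DRACH motifs, of which 0 were listed (Wilson interval 0 to 17.6%). Members with sites held 15 of these motifs (0 to 20.4%). Some of the 18 lie in the CDS, where a frame overlaps it. No share over all transcripts is given for such frames, so nothing is read from this count.

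**Figure D3:**
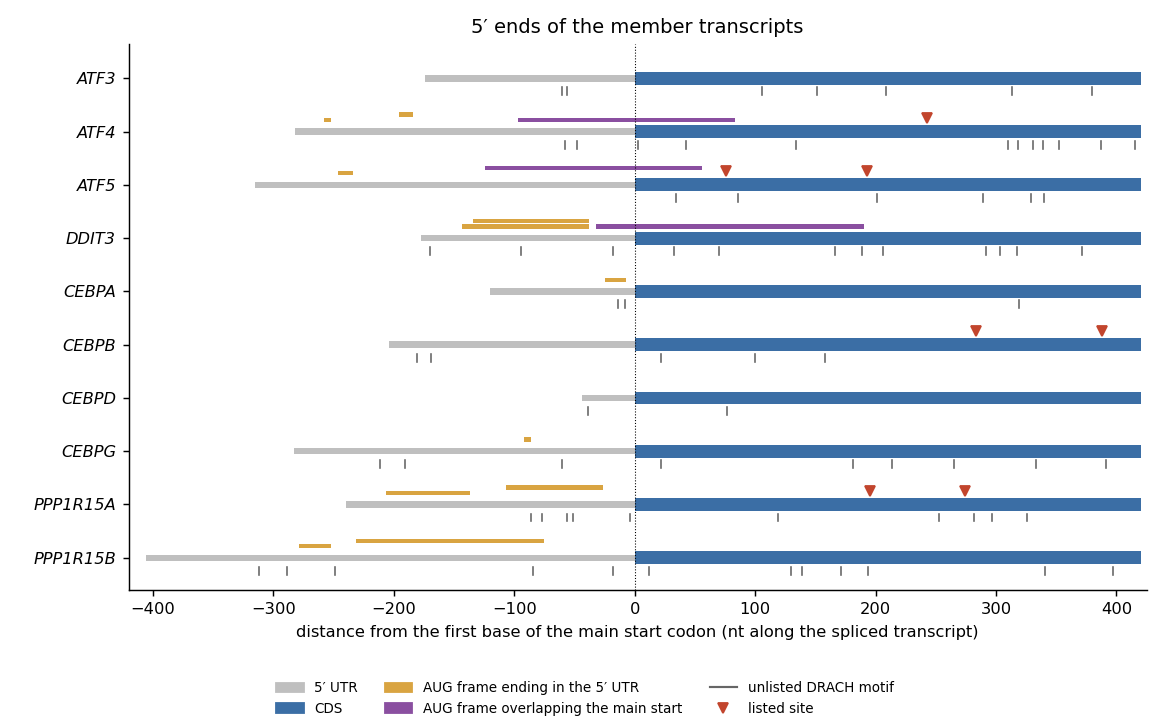
Spliced 5′ ends of the 10 members are aligned at the first base of the main start codon, with distance in nt on the x axis and the first part of the CDS drawn. Yellow bars are AUG frames that end in the 5′ UTR, purple bars are frames that overlap the main start, grey ticks are unlisted DRACH motifs and red triangles are listed sites. No triangle lies left of the start codon or under a yellow or purple bar; the closest is in ATF5, 21 nt past the end of a purple bar.

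ATF4, the factor at the centre of the response, lies on the plus strand of chromosome 22. Its transcript of 1419 nt has 3 exons and upstream frames of 1, 3 and 59 codons, and the longest of these runs from nt 186 to nt 365, sharing 83 nt with the main CDS. The only listed site was at position 39521790, in codon 82 of the CDS, 161 nt after the end of the long upstream frame. Its score of 0.768 was above that of 53.7% of all listed sites. The site lies in exon 3 of 3 and 17 nt from the junction with exon 2. All 11 annotated transcripts of the gene contain the position, and 1 of them, whose annotated start lies farther downstream, places it in the 5′ UTR. The long upstream frame holds 4 DRACH motifs, of which 2 are in the 5′ UTR and 2 in the shared stretch, among them the only GGACT of the transcript. The listed site is shown with these 4 unlisted motifs, the pentamer around each adenosine in capitals:
ATF4 listed, chr22:39521780-39521800: cttctccgGGACAgattggat
ATF4 unlisted, chr22:39521378-39521398: cgttgctgTAACCgacaaaga
ATF4 unlisted, chr22:39521388-39521408: accgacaaAGACAccttcgaa
ATF4 unlisted, chr22:39521439-39521459: ccgcaacaTGACCgaaatgag
ATF4 unlisted, chr22:39521479-39521499: ttggtgggGGACTtgatgtcc

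The 21 nt around the listed site of ATF4 occur at 2 places in the genome. The other is in ATF4P4 on chromosome 11 (113790551 to 113790571, plus strand), a pseudogene of ATF4, and no site was listed in it. The authors kept uniquely mapping reads, and a read confined to these bases could not be placed. How this affected the number of sites in ATF4 was not tested.

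ATF5, a close relative of ATF4 with a like arrangement of upstream frames, lies on the plus strand of chromosome 19. Its frames have 3 and 59 codons, and the longer runs from nt 192 to nt 371 and shares 56 nt with the CDS. The 7 sites were spread from nt 392 to nt 1765 of a transcript of 2007 nt, 5 of them coding and 2 past the stop codon. The site nearest the start, at position 49930927 in codon 26, had a score of 0.739 and lay 21 nt after the long frame, in exon 2 of 3. It was the only member site outside a last exon apart from 9 sites of PPP1R15A. It also fell inside a frame that opens out of phase at an AUG within the CDS, from nt 381 to nt 437. The next, at 49932437 in codon 65, scored 0.590 and lay 15 nt from the junction between exons 2 and 3. It too fell inside such frames, which end at nt 517. The GGACT site at 49932722 (codon 160) also scored 0.739, and these were the highest scores of the gene. The remaining coding sites were at 49932890 in codon 216, with 0.521, the lowest score of any member site, and at 49933078 in codon 279, 12 nt before the stop codon, with 0.645. The sites at both ends of the CDS are shown with the highest-scoring one and with the DRACH motif in the stretch shared with the long frame, which was not listed:
ATF5 listed, chr19:49930917-49930937: tggctcgtAGACTatgggaaa
ATF5 unlisted, chr19:49930875-49930895: ctggagctGGACAgggccctg
ATF5 listed, chr19:49932712-49932732: gatactctGGACTtgctggcc
ATF5 listed, chr19:49933068-49933088: gagccagaGGACCcgtagctg

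In the 3′ UTR of ATF5, the site at 49933693 (GGACA) scored 0.627. The site at 49933214, 124 nt after the first base of the stop codon, scored 0.567 and was the only member site outside DRACH.

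DDIT3, which encodes CHOP, lies on the minus strand of chromosome 12. Its transcript of 903 nt has 4 exons, and AUG frames of 34, 31 and 73 codons, of which the longest shares 190 nt with the CDS. These frames held 6 DRACH motifs in all, counting a motif inside the nested pair of frames as 1, and the CDS held 11, and none was listed. Both sites were in the 3′ UTR in exon 4 of 4. The site at 57516808 was the first nucleotide after the stop codon, so that its pentamer begins inside the stop codon, and its score was 0.743. The site at 57516744, 64 nt farther along, scored 0.682. Of the 6 annotated transcripts, 4 contain the sites, and the other 2 end before them.
DDIT3 listed, chr12:57516798-57516818: ccaagcatGAACAattgggag
DDIT3 listed, chr12:57516734-57516754: gtggctacTGACTaccctctc

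PPP1R15A and PPP1R15B encode subunits that direct protein phosphatase 1 to eIF2α, PPP1R15A upon stress and PPP1R15B in unstressed cells. PPP1R15A held 10 sites (10 of 39 DRACH motifs, 25.6%, 14.6 to 41.1) and PPP1R15B none, with 0 of 120 motifs listed, which allows a share of up to 2.50%. PPP1R15B has the longest transcript of the members, with 5259 nt and 7 GGACT motifs. Its RNA level in these cells was not analysed here. The proteins are alike over part of their length only, with 155 identical residues of 564 aligned (27.5%). Where a codon of PPP1R15B could be aligned to a listed codon of PPP1R15A, which was so for 8 of 10, the aligned pentamer was not DRACH. Only 0 to 3 of the 7 residues around these codons were identical, so the positions are poorly matched.

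PPP1R15A lies on the plus strand of chromosome 19. Of its 10 sites, 9 were in exon 2 of 3, which is 1674 nt long, and 1 in exon 3, and all 10 lay more than 100 nt from a junction. The lowest score was 0.648, the median 0.744 and the highest 0.873, and 9 of 10 reached 0.7. Its AUG frames of 22 and 26 codons end before the main start codon, and the second holds 4 unlisted DRACH motifs. From the 5′ end the sites were at 48873429 (codon 66, score 0.728), 48873508 (codon 92, 0.706), 48873681 (codon 150, 0.736) and 48874068 (codon 279, 0.795). Then followed 48874315 (codon 361, 0.830), 48874321 (codon 363, 0.870) and 48874444 (codon 404, 0.873), the highest scores of the gene. The last were 48874701 (codon 490, 0.648), 48874726 (codon 498, 0.751) and 48875951 (codon 668, 0.733), the latter 20 nt before the stop codon and, in the longest supported transcript, in the 3′ UTR.

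The 3 highest-scoring sites of PPP1R15A fell in repeated sequence. The protein has a central run of imperfect repeats, and the windows around codons 361 and 404 lie 129 nt apart and match at 18 of 21 bases. Both adenosines were listed, with scores of 0.830 and 0.873. The classifier takes the 21 nt around the adenosine as input, so these scores are not independent. The third, 6 nt after that of codon 361, has its counterpart at nt 1457 of the transcript, 129 nt downstream. The counterpart is not DRACH and was not listed. The next closest copies of the window of codon 404 matched at 15 of 21 bases and held no DRACH at the centre. Other sites of the gene lay in like sequence. The window of codon 490, which had the lowest score, matched that of nt 1288 at 17 of 21 bases, and the latter was neither DRACH nor listed. The window of codon 92 matched those of nt 1286 at 16 and of nt 1427 at 15 of 21 bases, and these were DRACH but not listed. The comparison was chosen after the scores were seen. The window of each of the 10 listed sites occurred at 1 place in the genome.
PPP1R15A codon 361, chr19:48874305-48874325: gaagatgaGGACAgtgactct
PPP1R15A codon 363, chr19:48874311-48874331: gaggacagTGACTctggatca
PPP1R15A codon 404, chr19:48874434-48874454: gaagatgaGGACAgtgataca

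CEBPB, a transcription factor of inflammation, fat cell formation and the stress response, lies on the plus strand of chromosome 20 and has 1 exon of 1839 nt. It had the highest share of motifs listed among the members, 9 of 20 DRACH motifs (45.0%, 25.8 to 65.8), and 4.89 sites per kb of transcript. It also held the 3 highest scores of all members. In the 3′ UTR, the sites were at 50192112 with a score of 0.598, at 50192169 with 0.932, at 50192337 with 0.956, at 50192440 with 0.855 and at 50192460 with 0.908. The score of 0.956 was above that of 98.1% of all listed sites. It belongs to an AAACT motif, a pentamer whose 731 sites in the whole list had a median of 0.793. Low and high scores were found side by side, since the sites with 0.598 and 0.932 are 57 nt apart.

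The CDS of CEBPB gives several proteins from different in-frame AUGs, the full activators LAP* and LAP and the short LIP, which lacks the activation domain. In-frame AUGs were found at codons 1, 24, 199 and 294. No site lay before codon 24. The sites at 50191317 (codon 95, score 0.846), 50191422 (codon 130, 0.564) and 50191581 (codon 183, 0.881) lay between codons 24 and 199. The fourth, at 50192019, was in codon 329, in the conserved end of the protein, and scored 0.649. No AUG frame was found in the 5′ UTR. Within the CDS, a frame opens out of phase at an AUG before codon 24. It runs from nt 234 to nt 269 and held no site. The sequences of the highest site in the CDS, the highest in the 3′ UTR, the last pair and the site in codon 329 are given:
CEBPB codon 183, chr20:50191571-50191591: gagcccgcGGACTgcaagcgg
CEBPB codon 329, chr20:50192009-50192029: accctgcgGAACTtgttcaag
CEBPB 3′ UTR, chr20:50192327-50192347: tgaatgatAAACTctctgctt
CEBPB 3′ UTR, chr20:50192430-50192450: tgtacacgGGACTgacgcaac
CEBPB 3′ UTR, chr20:50192450-50192470: cccacgtgTAACTgtcagccg

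The other C/EBP genes had few or no sites. CEBPD, which like CEBPB and CEBPA has 1 exon, lies on the minus strand of chromosome 8. Its site at 47737321 was at DRACH in codon 267, 8 nt before the stop codon, with a score of 0.663, above 29.5% of all listed sites. It was 1 of 18 DRACH motifs (5.56%, 0.988 to 25.8). CEBPA, which drives the differentiation of myeloid and fat cells, has a transcript of 2601 nt whose GC content of 65.9% is close to the 66.2% of CEBPB. It held 34 DRACH motifs, among them 3 GGACT, and no listed site, which allows a share of up to 8.82%. CEBPG, which lacks an activation domain of its own, held 72 motifs, 62 of them in a 3′ UTR of 2994 nt, and no site (up to 4.17%).

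The conserved end of the C/EBP proteins, the basic region and leucine zipper, allowed positions to be compared between paralogs. Codon 329 of CEBPB aligned with codon 340 of CEBPA, codon 249 of CEBPD and codon 120 of CEBPG, with 4, 4 and 3 identical residues of the 7 around it. The aligned pentamer was DRACH in none of the 3. Codon 267 of CEBPD aligned with codon 344 of CEBPB, codon 356 of CEBPA and codon 137 of CEBPG, none of them at DRACH or listed. Here only 2, 2 and 0 of the 7 residues around it were identical, so these positions are poorly matched. Over all aligned residues, CEBPB shared 49.8% with CEBPA and 44.1% with CEBPD. Likewise, the 4 codons of ATF5 with a site that aligned to a codon of ATF4 met no DRACH there. Among them, codon 65 of ATF5 aligned with codon 83 of ATF4, next to codon 82, which holds the listed site of ATF4. Codon 82 itself met a gap in ATF5, with 5 of the 7 residues around it identical. These sites lay 15 nt (ATF5) and 17 nt (ATF4) from the junction between exons 2 and 3.

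ATF3, an early stress factor that ATF4 and DDIT3 work with, had no listed site among the 27 DRACH motifs of its 1940 nt, of which 17 are in the 3′ UTR and 2 are GGACT. A count of 0 of 27 allows a share of up to 11.1%. None of its 10 annotated transcripts had a site.

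The scores of the 30 sites had a median of 0.738 (quartiles 0.648 and 0.842), beside 0.754 (0.640 and 0.847) for all listed sites. The scores of 19 sites were at least 0.7. By gene, the medians were 0.855 in CEBPB, 0.744 in PPP1R15A and 0.627 in ATF5. All 7 sites of ATF5 were at or below 0.739, and 6 of the 9 sites of CEBPB were above 0.84, so that the upper part of CEBPB lies above every site of ATF5 while the lower scores of the genes overlap. With 1 pooled list, no error can be set against these differences. Member sites in the CDS ranged from 0.521 to 0.881 and those in the 3′ UTR from 0.567 to 0.956, and the ranges overlap over most of their length.

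**Figure D4:**
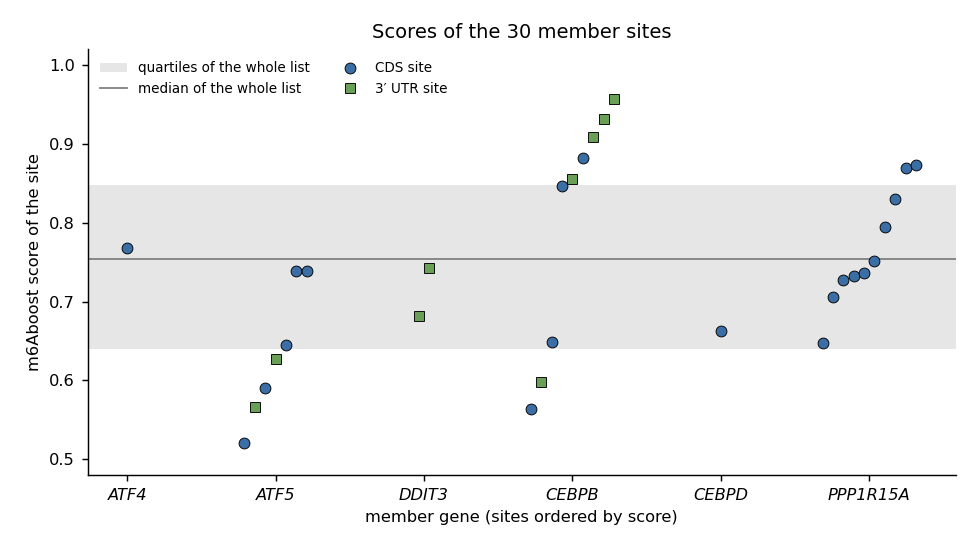
Each point is the m6Aboost score (y axis) of a listed site of the member on the x axis, blue circles in the CDS and green squares in the 3′ UTR. The grey band spans the quartiles of all listed sites (0.640 to 0.847) and the line is their median (0.754). The points above the band belong to CEBPB (5 sites) and PPP1R15A (2 sites).

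By motif, 29 of the 30 sites were at DRACH (96.7%, 83.3 to 99.4), beside 88.7% of all listed sites. GGACA was the most frequent pentamer with 7 sites, followed by GGACT with 5. AAACT had 3 sites, with a median score of 0.932, and all were in CEBPB or PPP1R15A. The 5 GGACT sites had a median score of 0.751, beside 0.833 for the 4072 GGACT sites of the whole list, and the 7 GGACA sites had 0.768, beside 0.763 for 2528. In the CDS, the adenosine was the second base of its codon at 15 of 21 sites, the first base at 6 and the last base at 0. Of the 93 coding DRACH motifs of the same 6 transcripts, 49 (52.7%) had the adenosine as the second base and 31 (33.3%) as the first. In 13 (13.98%) it was the last base. In the CDS of all transcripts with a site, the adenosine of listed DRACH motifs was the second base in 57.2%, the first in 21.7% and the last in 21.1%.

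By exon, the spliced members ATF4, ATF5, DDIT3 and PPP1R15A had 20 sites, 10 of them in the last exon (50%, 29.9 to 70.1). Of the 17440 listed sites in exons of spliced canonical transcripts, 75.3% lay in the last. The 9 sites in the long exon 2 of PPP1R15A and the site in exon 2 of ATF5 made up the rest. In the longest supported transcript of PPP1R15A, which has 2 exons, all of its sites lie in the last. Within 100 nt of a junction lay 16 coding DRACH motifs of these members, of which the 2 in ATF4 and ATF5 were listed (12.5%, 3.50 to 36.0). The ATF5 site in codon 26 lay 101 nt from a junction, just outside this window, and no other junction window was tried. Farther away lay 61, of which 14 were listed (22.95%, 14.2 to 34.9). In all spliced transcripts with a site the shares were 2.44% near junctions and 17.8% farther away. Over all 10 members, 21 of 176 coding motifs (11.9%, 7.94 to 17.6) and 8 of 196 motifs of the 3′ UTR (4.08%, 2.08 to 7.85) were listed. In the members with a site these were 21 of 93 (22.6%) and 8 of 38 (21.1%). In all transcripts with a site the shares were 6.3% of coding motifs and 9.37% of those of the 3′ UTR. The place of the members' 3′ UTR share, below or above this, thus turns with whether members without sites are counted, and the floor named above holds for the junction shares too.

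Other genes of the pathway were counted from a list of 74 sensors, effectors, targets and related factors, here in exons of the canonical transcript only. ERN1, a sensor of the unfolded protein response, held 1 site in another exon, which is not counted. Of the 74 genes, 34 held sites (45.9%, 35.1 to 57.2), beside 19.3% of all coding genes. They held 182 sites in all, of which 62 were coding, 117 in the 3′ UTR and 3 upstream of the CDS. Among all listed sites in canonical exons, these regions held 42.96%, 54.8% and 2.26%. The list was chosen with earlier results known and RNA levels were not analysed, so nothing about the pathway is read from these counts. Among sensors and subunits of the eIF2 machinery 5 of 16 genes held sites, and among the other arms of the unfolded protein response 11 of 18. Of the genes listed as known targets of ATF4 or CHOP, 12 of 20 held sites. This class includes CEBPE, which held no site and whose place as a target was not checked. The count was 6 of 20 among other ATF and CREB factors and related ones. The related ones include HLF, DBP, TEF and NFIL3, of which DBP and TEF held sites. The 5 genes richest in sites were all known targets: SLC7A5, an amino acid transporter, with 21, all in the 3′ UTR, STC2 and VEGFA, both secreted factors, with 13 each, TRIB3, an inhibitor of ATF4, with 11, and CHAC1, a glutathione-degrading enzyme, with 10. Sites in the 5′ UTR were those of EIF2B4 (chromosome 2, position 27370324, score 0.571), CREB3 (chromosome 9, 35732674, 0.533) and CREB3L1 (chromosome 11, 46278046, 0.645), and none lay in an AUG frame. The eIF2α kinases EIF2AK1, EIF2AK2, EIF2AK3 and EIF2AK4, named after their values were seen, held no site.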

How the data were processed

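miCLIP2 libraries of untreated C643 wild-type cells (4 libraries, 3 biological replicates, 1 group) were processed by the authors. Per the submitters' processing notes, STAR 2.7.3a, SAMtools 1.9, UMI-tools 1.0.0 and bedtools 2.27.1 were used. Reads were mapped uniquely to GRCh38, duplicates were removed by molecular identifier, peaks were called with PureCLIP and kept when found in more than 1 replicate, and peaks at A were classified by m6Aboost. The authors deposited 1 pooled list whose value is the m6Aboost score, a fraction between 0 and 1. Read counts were not used here, so depth per site is unknown.

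Sites were placed on GENCODE release 44 (the authors used an earlier release on the same assembly) with Python 3.11.15, pysam 0.24.0, numpy 2.4.6, scipy 1.17.1 and matplotlib 3.10.9. Each gene was represented by its MANE Select transcript, else the Ensembl canonical, else the longest, and readthrough genes were left out of the background. The longest supported transcript (annotation level up to 2 and, where given, transcript support level up to 3) served as an alternative. Upstream frames began at AUG in the 5′ UTR. Proteins were translated from these transcripts and aligned with mafft 7.526. Sequences are from the GRCh38 reference. As checks, 200 random positions of annotated transcripts were mapped to the genome and back, and 10 of 10 member transcripts equalled the GENCODE sequence. The search for frames found all 50 frames planted in simulated sequence. Each planted frame ended before the main start codon, in a leader without another AUG. Nested frames and frames that overlap the main start were therefore not checked in this way.

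The members, the pathway list and the tests were chosen with earlier results of these data known. The text names all members and their sites, the 5 pathway genes with the most sites, and pathway genes with a site in the 5′ UTR. Sequences of 21 nt were set for sites in a 5′ UTR or upstream frame, of which there were none, and for the highest-scoring site of each member except CEBPD. All other sequences shown were chosen after the values were seen, and 1 sequence of ATF5 and the values that rest on it are not reported here. Alternatives covered the score threshold, the transcript, the motif, the kind of frame and the window at the stop codon.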

Additional observations from a re-analysis of the deposited data

How the results depend on the processing

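Of 31 alternatives over 12 results, 24 left the value within its interval or within 1.5 times the main count. With scores of at least 0.7, the 30 member sites became 19, the share at DRACH went from 96.7% to 100%, and the share of DRACH motifs listed went from 7.30% to 4.79%. The latter was 20.0% for GGACT alone and 20.1% in members with a site only. Counting the 5′ UTR of any coding transcript gave 1 site in place of 0, that of ATF4. With the longest supported transcripts, 96.7% of sites lay in the last exon in place of 66.7%. The share over listed sites of all coding genes was not recomputed with these transcripts. The alternatives without PPP1R15A for the CDS and 3′ UTR shares, and without sites whose window of 21 nt had more than 3 copies in the genome (29 sites), were chosen after seeing the data. No replicate could be left out, since the list pools them. No paired analysis was possible because all libraries are of 1 group. The pooled list has no counts, so how depth limits the sites listed was not tested.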
